A study of Mus musculus with 2 samples.

Results

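The 7 genes described here are Ciita, Cd74, H2-Aa, H2-Ab1, H2-Eb1, H2-DMa and H2-DMb1, the core of MHC class II antigen presentation in the mouse. They were chosen by name, with no threshold on measured values but with earlier results of these data known, from 26082 genes in the deposited tables, and each of the 7 was found once in both libraries. RNA was taken from primary fibro-adipogenic progenitors (FAPs) of wild-type mice, the mesenchymal cells of skeletal muscle that can become adipocytes. One library, labelled TGFBR3 below, came from FAPs given plasmids that overexpress TGFBR3, and the other, labelled vector, from FAPs given the empty vector. The protocol gives an adipogenic induction medium, DMEM with FBS (20%), insulin (10 μg/ml), dexamethasone (0.25 μM) and IBMX (0.5 mM). The study sorted FAPs from hind limb muscle by flow cytometry, and the sources used here do not say how many animals or cultures each library holds or which promoter drives the plasmid.

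MHC class II molecules are pairs of an α and a β chain that show peptides from the endosome to CD4 T cells. In C57BL/6 mice, bought by the study at 6 to 8 weeks of age, the classical pair is built from H2-Aa and H2-Ab1, and H2-Eb1 has no working α chain partner. The invariant chain, encoded by Cd74, escorts the pair to the endosome, and H2-DMa and H2-DMb1 form the editor that exchanges the invariant chain peptide for others. Ciita is the transactivator without which most cells do not transcribe these genes. Dendritic cells, macrophages and B cells use them constantly, whereas fibroblast-like cells are known to switch on Ciita mainly after interferon gamma, and type I interferons are known to raise MHC class I far more than class II.

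Depth was 62321027 counts in the library labelled TGFBR3, against 83779203 in the library labelled vector. Tgfbr3 itself had 16372 and 21245 counts, at an FPKM of 36.9 and 35.1 (log2 ratio 0.07). The overexpressed gene was thus not raised, so each library is called by its label and directions follow those labels. A single library stood for each condition, so the differences could not be set against replicates and were not tested. The FAP markers Pdgfra (FPKM 30.5 and 32.6), Ly6a (1013 and 706) and Thy1 (114 and 117) were abundant in both libraries, while Pi16 was near 0, with 12 and 51 counts. Of the 8 FAP markers, 6 had a log2 ratio below 0, and Dpt, at an FPKM of 3.48 and 8.72 (−1.12), was the 1 that was 2-fold lower. Col1a1 was at 467 and 870 (−0.89) and Cd34 at 20.6 and 25.7 (−0.30). The summed share of the FAP markers had a ratio of 0.681 (95% CI 0.678 to 0.683). Their summed FPKM, which is scaled to gene length, was 1667 and 1777.

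In both libraries 4 of the 7 class II genes had an FPKM under 1 and the highest reached 9.71, and none of the 7 genes was 2-fold higher in the library labelled TGFBR3. None was 2-fold lower. The measure was the log2 ratio of (FPKM + 1), the library labelled TGFBR3 over the library labelled vector, where FPKM is the count scaled to gene length and library total, and a log2 ratio of 1 or −1 is 2-fold. Over all 26082 genes, 1.41% were at least 2-fold higher and 0.475% at least 2-fold lower. Of the 7 log2 ratios, 2 were above 0, 4 were below 0 and 1 was 0, with a median of −0.03, against a median of 0.03 over all genes. Because the added 1 hides changes of low genes, the share of each gene in the counts of its library was compared as well. Among the 17985 genes with more than 3 counts in both libraries, 13.0% had a share at least 2-fold higher and 4.35% a share at least 2-fold lower. The filter left 5 of the 7 genes, of which 0 were 2-fold higher and 0 were 2-fold lower. Together the 7 genes held 2594 counts against 4625, a ratio of shares of 0.754 (95% CI 0.718 to 0.791, exact Clopper-Pearson, for counting error only). By counts, the sum of the FAP markers moved to the same side, at 0.681, but single markers differed. Col1a1 was lower by more FPKM than the sum was. Ly6a was higher, at an FPKM of 1013 and 706, and Pdgfra had a ratio of shares of 0.923. The summed FPKM of the FAP markers was 1667 and 1777, against 17.4 and 21.9 for the class II genes. The part of the FAP markers in the class II values was not tested. In bulk RNA, fewer cells that express a gene and less of its RNA per cell cannot be told apart.

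**Figure D1:**
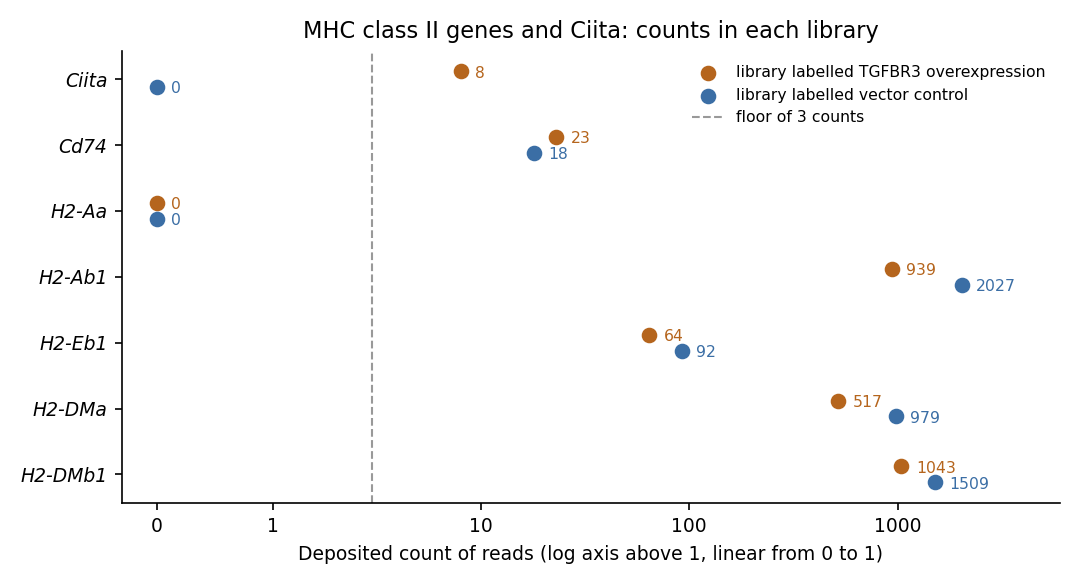
Deposited counts of the 7 genes in the library labelled TGFBR3 (brown) and the library labelled vector (blue), 1 library each, on a log axis above 1, with the floor of 3 counts dashed. H2-Aa was at 0 in both libraries and Ciita at 8 and 0, while H2-Ab1, H2-DMa and H2-DMb1 had from 517 to 2027 counts.

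Ciita (ENSMUSG00000022504), the transactivator, is a plus-strand gene of chromosome 16 (10480059 to 10528418, build mm10, as for all positions given). It had 8 counts in the library labelled TGFBR3 and 0 in the library labelled vector, and its FPKM was 0.01 and 0. Set against the floor of 3 counts in the control library, its share was at least 3.58-fold higher, and the exact interval of the ratio had a lower limit of 2.29. Counts of exactly 4 and 8 were common in these tables: 913 and 930 genes had 4 counts, against 458 and 416 with 3 and 323 and 271 with 5. With counts taken in units of 4, the lower limit for Ciita was 0.252, so the depth could not show a difference. The level was near 0 in both libraries. Dexi, on the opposite strand, overlaps 329 of the 9535 exon bases of Ciita and had 858 and 1518 counts. Without strand, reads from the shared bases cannot be told apart, and the part of Dexi in the 8 counts was not tested.

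Nlrc5 encodes the transactivator of MHC class I genes and belongs to the same protein family as Ciita. Its counts were 3598 and 870 and its FPKM 6.24 and 1.10 (log2 ratio 1.79), a ratio of shares of 5.56 (95% CI 5.16 to 5.99). The class II transactivator was close to 0 in the same library in which its class I counterpart had 3598 counts.

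H2-Aa (ENSMUSG00000036594), the α chain, lies on chromosome 17 from 34282744 to 34287823 on the minus strand and had 0 counts in both libraries. A count of 0 allows an FPKM of up to 0.0116 in the library labelled TGFBR3 and up to 0.00855 in the library labelled vector, from the floor of 3 counts, its 3798 exon bases and the library totals that the FPKM values imply. H2-Ab1 (ENSMUSG00000073421), the β chain that pairs with it, lies on the same chromosome from 34257689 to 34269419 on the plus strand and was measured well above that. Its counts were 939 and 2027 and its FPKM 5.38 and 8.54. Per length, the level of H2-Ab1 was at least 462-fold above the limit for H2-Aa in the library labelled TGFBR3 and at least 999-fold above it in the library labelled vector. Both libraries thus held RNA counted to the β chain and none counted to its partner. Words of 31 bases that H2-Ab1 shares with transcripts of other genes made up 0.267% of its words, and those of H2-Aa 0.911%.

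H2-Ab1 was the member with the lowest log2 ratio. That ratio was −0.58 (95% CI −0.68 to −0.48), and 2.36% of all genes had a lower one. By counts, its share was 0.623 times that in the library labelled vector (95% CI 0.576 to 0.673), and with counts in units of 4 the interval ran from 0.532 to 0.729. Its transcripts have a GC content of 57.7%, and genes rich in GC had lower log2 ratios throughout: the median was 0.46 for the GC-poorest of 20 bins and −0.25 for the GC-richest. After removal of that trend, the log2 ratio of H2-Ab1 was −0.49.

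H2-Eb1 (ENSMUSG00000060586), the second β chain, lies on chromosome 17 from 34305867 to 34316674 on the plus strand. It had 64 counts in the library labelled TGFBR3 and 92 in the library labelled vector. Its FPKM was 0.48 and 0.51, so per length H2-Ab1 stood 11.2-fold and 16.7-fold above it. The ratio of shares was 0.935 (95% CI 0.669 to 1.30), an interval that holds no change and does not reach 2-fold in either direction. In units of 4 counts, the interval widened to 0.462 to 1.85.

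Cd74 (ENSMUSG00000024610), the invariant chain, lies on chromosome 18 from 60803848 to 60812652 on the plus strand. It had 23 counts in the library labelled TGFBR3 and 18 in the other, with FPKM values of 0.19 and 0.11. The ratio of shares was 1.72 (95% CI 0.887 to 3.38), so no difference could be shown with so few counts, and a share 2-fold higher lies within the interval. Cd74 is among the most abundant transcripts of professional antigen-presenting cells, and here 40.3% and 38.2% of all genes had a lower FPKM. The genes of the receptors and ligands that act with CD74 were, by contrast, mostly well expressed. Mif, its ligand, had FPKM values of 529 and 600 (log2 ratio −0.18), Ddt, the relative of Mif, 28.8 and 36.1 (−0.31), and Cd44, its co-receptor, 59.7 and 37.6 (0.65). Cxcr4 had 0 and 15 counts, and Cxcr2 was not analysed here.

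Of the 7 genes, H2-DMb1 (ENSMUSG00000079547), a chain of the peptide editor, had the highest FPKM in both libraries. It lies on chromosome 17 from 34153072 to 34160230 on the plus strand and had 1043 and 1509 counts and FPKM values of 9.13 and 9.71. Its ratio of shares was 0.929 (95% CI 0.858 to 1.01), and the log2 ratio was −0.08 (95% CI −0.18 to 0.02). Words shared with H2-DMb2 made up 31.4% of its words, so that reads could have been split between these neighbors or left out. H2-DMb2, the paralog, had 31 and 53 counts. The genes with the most similar pair of log2 (FPKM + 1) values over the 2 libraries were Dtx3, Exoc4 and Med9, at distances of 0.02, 0.02 and 0.03, and a likeness over 2 libraries says no more than that their levels were alike.

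H2-DMa (ENSMUSG00000037649), the other chain of the editor, lies on chromosome 17 from 34119541 to 34139101 on the plus strand. It had 517 counts in the library labelled TGFBR3 and 979 in the library labelled vector, with FPKM values of 2.2 and 3.06. Its ratio of shares was 0.710 (95% CI 0.637 to 0.791), and it stayed below 1 with counts in units of 4, where the interval ran from 0.567 to 0.880. The log2 ratio was −0.34, and −0.24 after the GC trend was taken out. Brd2, on the opposite strand, overlaps 360 of the 3448 exon bases of H2-DMa. It had 17580 and 15347 counts, with FPKM values of 33.1 and 21.2, so its own ratio lay on the other side of 1, and its part in the counts of H2-DMa was not tested. H2-Oa, a chain of the molecule that restrains the editor, was near 0, with 7 and 4 counts.

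**Figure D2:**
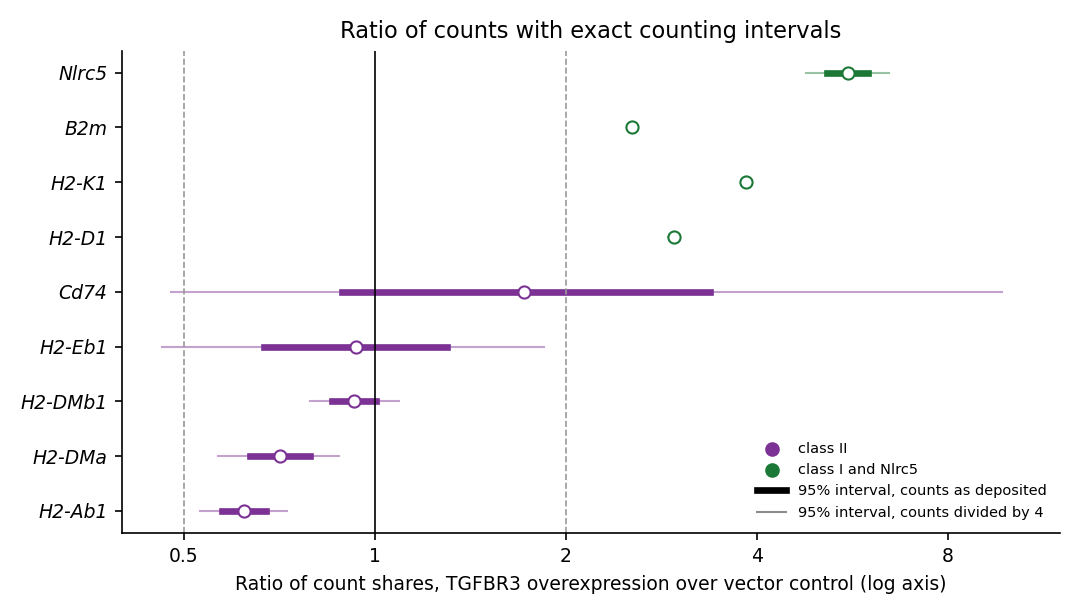
Ratio of the share of counts, library labelled TGFBR3 over library labelled vector, on a log axis, with exact 95% intervals on the counts as deposited (thick) and divided by 4 (thin). H2-Ab1 and H2-DMa lie below 1 at 0.623 and 0.710, the intervals of H2-DMb1, H2-Eb1 and Cd74 cross 1, and Nlrc5 lies at 5.56. Ciita and H2-Aa have no count in the control library and are not drawn.

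In the order of level, H2-DMb1, H2-Ab1 and H2-DMa came first in both libraries, those that reached an FPKM of 1, followed by H2-Eb1 and Cd74. Ciita and H2-Aa came last, tied at 0 counts in the library labelled vector. H2-DMb1 and H2-Ab1 were close in the library labelled vector, at 9.71 and 8.54, and farther apart in the library labelled TGFBR3, at 9.13 and 5.38. The spread between cultures is unknown, so neighbors in this order cannot be separated.

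The sequences before the starts of these genes are shown because class II promoters share an X box, bound by the RFX complex, and a Y box, bound by NF-Y, through which CIITA acts. RefSeq on GRCm38.p6, the build also called mm10, held windows for 4 of the 7 genes, H2-Aa, H2-Eb1, H2-DMa and H2-DMb1. The 250 bases before each RefSeq start were searched on both strands for GNAACT, a core of the X box, followed after 20 to 35 bases by ATTGG, the core of the Y box. The search was chosen after the values were seen, and a match is a description. The pair was present in H2-Aa, H2-Eb1 and H2-DMb1, with 27, 26 and 27 bases between the cores. Neither of the 2 windows of H2-DMa held it. Both lie inside the annotated gene, with their last 150 bases at chr17:34122682-34122831 and chr17:34125368-34125517. Other starts of H2-DMa were not searched. Of all 32851 windows, 0.591% held the pair. The last 150 bases before the start are printed from 5′ to 3′ with both cores in capitals, for H2-Aa (chr17:34287824-34287973, minus strand), H2-Eb1 (chr17:34305717-34305866, plus strand) and H2-DMb1 (chr17:34153041-34153190, plus strand).
H2-Aa: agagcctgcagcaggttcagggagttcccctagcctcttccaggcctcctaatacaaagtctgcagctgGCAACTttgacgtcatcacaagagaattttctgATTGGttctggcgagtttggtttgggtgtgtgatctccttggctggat
H2-Eb1: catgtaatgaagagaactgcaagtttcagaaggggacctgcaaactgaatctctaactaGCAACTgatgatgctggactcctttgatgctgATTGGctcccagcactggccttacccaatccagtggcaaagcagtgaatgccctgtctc
H2-DMb1: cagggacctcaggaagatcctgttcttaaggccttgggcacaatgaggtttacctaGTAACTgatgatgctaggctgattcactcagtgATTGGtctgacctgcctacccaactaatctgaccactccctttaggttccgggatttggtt

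The same arrangement of cores thus stood before a gene with 0 counts in both libraries. It also stood before the RefSeq start of H2-DMb1, the member with the highest FPKM, at 1043 and 1509 counts. H2-DMb1 is annotated from 34153072, so both of its cores lie inside the annotated gene. A letter pattern of the interferon-stimulated response element, GAANNGAAA, was searched on either strand. It was in 0 of 5 class II windows, 6 of 13 class I presentation windows and 6.31% of all windows. The 5 windows belong to 4 genes. The 6 matches were all in related heavy chain genes, H2-K1, counted for each of its windows, H2-D1, H2-Q4, H2-Q6 and H2-Q7. A letter pattern of the gamma-activated site, TTCNNNGAA, was in 0 of 5 class II windows, 1 of 13 class I presentation windows and 7.02% of all windows. No match says only that these letters are not in these windows.

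The factors that bind the X and Y boxes were expressed in both libraries. All 7 genes of the list of promoter factors were measured, 5 had a log2 ratio above 0, and none was 2-fold higher or lower. Rfx5, the DNA-binding subunit of the RFX complex, had FPKM values of 3.80 and 2.58 (log2 ratio 0.42), Rfxap 4.13 and 4.49 (−0.10), and Rfxank 3.72 and 3.29 (0.14). The NF-Y subunits Nfya, Nfyb and Nfyc had log2 ratios of 0.04, 0.36 and −0.06. Creb1, which binds beside the X box, had FPKM values of 1.10 and 0.70 (0.30). Without the GC trend, Nfyb and Creb1 were at 0.02 and −0.14. The median of the list was 0.14, against 0.03 over all genes, and −0.05 without the GC trend, so no direction is given for it. RNA of the promoter factors was present where that of Ciita was near 0.

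Of the endosomal processing genes, 9 were measured, 5 had a log2 ratio above 0 and 4 below, and none reached 2-fold on the (FPKM + 1) scale. Their median was 0.01 and ran from −0.25 to 0.16 over the alternatives, so no direction is given. The lysosomal proteases that every cell uses were abundant, with FPKM values of 1223 and 1577 for Ctsd, 270 and 220 for Ctsb, 138 and 159 for Ctsl, and 87.2 and 78.0 for Lgmn. Ctss, the protease that trims the invariant chain in professional antigen-presenting cells, was low, with 70 counts against 18. Its ratio of shares was 5.23 (95% CI 3.08 to 9.33), and its log2 ratio of (FPKM + 1) was 0.61. Sppl2a, which removes the last membrane stub of the invariant chain, had FPKM values of 16.0 and 8.29 (log2 ratio 0.87, or 0.42 without the GC trend). Ifi30, the reductase of the class II compartment that interferon gamma is known to induce, was at 39.8 and 46.8 (−0.23). Marchf8, a ligase that removes class II molecules from the surface of cells, was at 7.05 and 8.48 (−0.24), and Marchf1, its relative in immune cells, had 6 and 0 counts.

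The receptor for interferon gamma was expressed in both libraries. Ifngr1 had FPKM values of 24.4 and 23.1 (log2 ratio 0.08), and Ifngr2 19.4 and 22.2 (−0.19). The kinases that the receptor uses, Jak1 and Jak2, had log2 ratios of 0.42 and 0.78. Irf1, which binds the interferon gamma-responsive promoter of Ciita, had FPKM values of 18.0 and 10.6 (0.71), and Socs1, the feedback inhibitor, 2.56 and 2.01 (0.24). RNA of both receptor chains was thus within 1.5-fold between the libraries. Ifng was not analysed here. Ifnb1, a type I interferon, had 9 and 3 counts, a ratio of shares of 4.03 (95% CI 1.01 to 23.2). With counts in units of 4 that interval ran from 0.140 to 159, so the depth could not show a difference.

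The class I presentation genes had other values than the class II genes, a difference that was not tested. Of 14 class I genes, 12 had a log2 ratio of 1 or more, against 1.41% of all genes, and their median log2 ratio was 1.68. B2m, the light chain, had FPKM values of 3077 and 1195 (log2 ratio 1.36), H2-K1 774 and 199 (1.96), and H2-D1 751 and 251 (1.58). Without the GC trend, B2m was below 2-fold, at 0.91. The ratios of H2-Q6 (5.14), H2-Q7 (2.87) and H2-Q4 (2.75) were the largest of the list, and their sequences are close relatives between which reads can be split. Per length, B2m stood 140-fold above H2-Ab1 in the library labelled vector and 572-fold above it in the library labelled TGFBR3.

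Among genes often linked to interferon gamma, 10 of 14 were at least 2-fold higher, with a median of 2.54. Among genes often linked to type I interferon, 12 of 12 were, with a median of 2.86. The share over all genes was 1.41%. On the log2 (FPKM + 1) scale, the list linked to interferon gamma was led by Cxcl9, a chemokine for T cells, at FPKM values of 141 and 1.61 (log2 ratio 5.76), followed by Cxcl10 (4.08) and Igtp (3.49). By count shares, Gbp4, named after its values were seen, had a larger ratio than Cxcl9, 167 (95% CI 76.3 to 456) from 745 and 6 counts, against 85.7 for Cxcl9. Most of these genes also respond to type I interferon, so the lists do not separate the sources. Beside them, Ciita, H2-Aa, Cd74 and H2-Eb1 had at most 92 counts, and H2-Ab1, H2-DMa and H2-DMb1 had log2 ratios below 0.

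**Figure D3:**
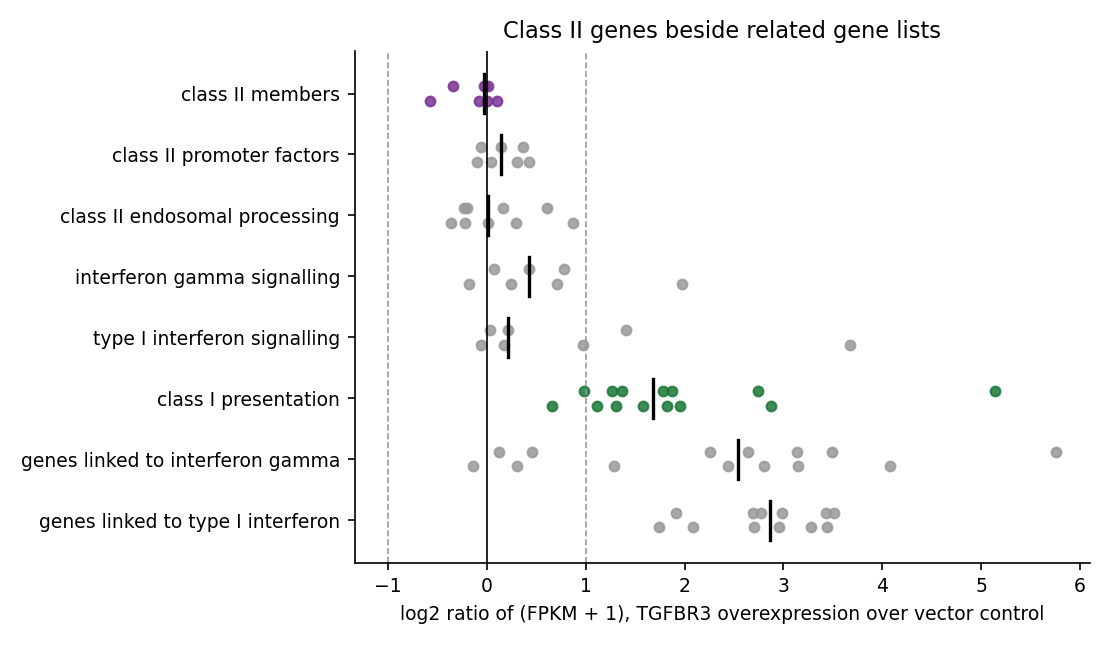
Each point is the log2 ratio of (FPKM + 1) of a gene in 1 of 8 lists, library labelled TGFBR3 over library labelled vector, with the median of each list as a black bar and 2-fold dashed. The class II genes lie between −0.58 and 0.10, and the class I presentation genes between 0.65 and 5.14.

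The 5 class II members on chromosome 17 lie in the same stretch as several class I presentation genes, a neighborhood described after the values were seen. From H2-K1 to H2-Eb1, the stretch spans 321 kb (chromosome 17, 33996017 to 34316674) and holds 18 protein-coding genes of the deposited tables. On the log2 (FPKM + 1) scale, 4 genes in it passed 2-fold, all higher in the library labelled TGFBR3. They were H2-K1 (1.96), Psmb9 (1.87), Psmb8 (1.83) and Tap1 (1.31). Psmb8 and Psmb9 encode immunoproteasome subunits, and Tap1 encodes a chain of the transporter that loads peptides for class I. None of the 7 class II genes in the stretch was 2-fold higher on that scale, against 1.41% of all genes. The added 1 hides changes of H2-Aa, H2-Oa, H2-DMb2 and H2-Eb1, whose FPKM was under 1 in both libraries. By count share, H2-Oa was 2.35-fold higher, from 7 and 4 counts. The exact interval of that ratio ran from 0.598 to 11.0, so the depth could not show a difference. Psmb9, Tap1, Psmb8 and Tap2 (0.65) stand side by side within 34.3 kb, between the class II genes H2-DMb1 (−0.08), which ends 21.8 kb before them, and H2-Ab1 (−0.58), which begins 41.4 kb after them. Psmb9 and Tap1 overlap at their 5′ ends on opposite strands, so reads from the shared bases cannot be told apart without strand.

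**Figure D4:**
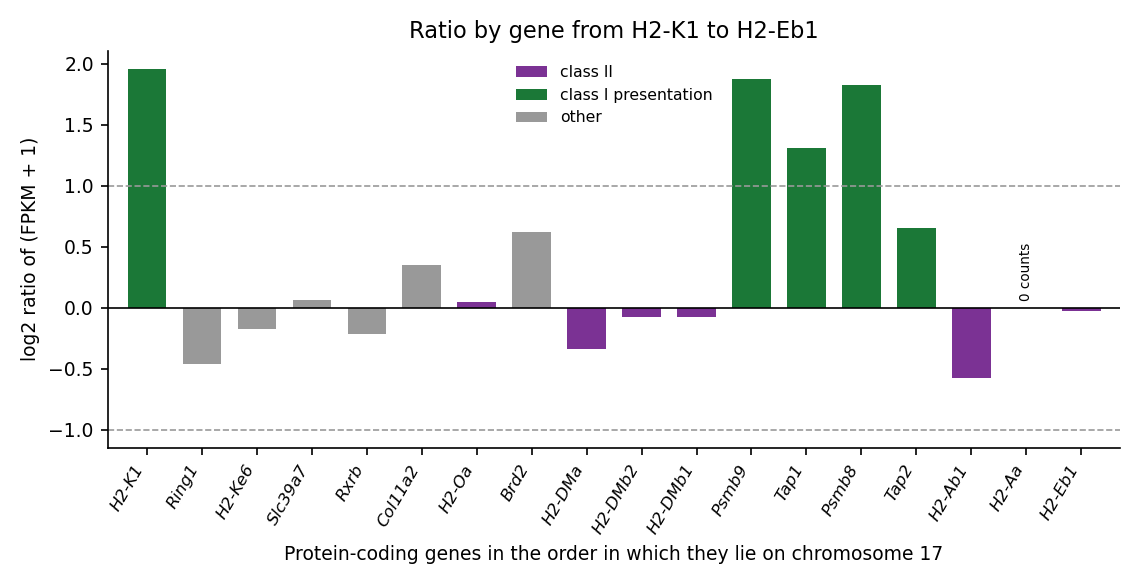
Log2 ratio of (FPKM + 1) of the 18 protein-coding genes from H2-K1 to H2-Eb1, evenly spaced in their order on chromosome 17, with class II genes in purple, class I presentation genes in green, others in grey and 2-fold dashed. Psmb9, Tap1, Psmb8 and Tap2 stand above 0 between class II genes that range from −0.58 to 0.04.

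Markers of professional antigen-presenting cells were at or near 0, as measured beside these class II values. The 10 macrophage markers summed to 290 and 268 counts, with a highest FPKM of 0.46, in Csf1r, and Adgre1, Tyrobp and Fcer1g had 0 counts in both libraries. As a share, their sum had a ratio of 1.45 (95% CI 1.23 to 1.72), and that of the class II genes was 0.754. Csf1r gave 182 and 210 of the macrophage counts, a ratio of 1.17 (95% CI 0.950 to 1.43). The other macrophage markers had at most 46 counts. Of the 10 macrophage markers, 5 had a log2 ratio above 0 and 1 below. The 6 measured dendritic cell markers summed to 98 and 188 counts, a ratio of shares of 0.701 (95% CI 0.543 to 0.899), of which Zbtb46 gave 79 and 180, and Clec9a had 0 in both. The 3 measured B cell markers summed to 315 and 98 counts, a ratio of shares of 4.32 (95% CI 3.43 to 5.48). Of these counts Pax5 gave 310 and 81, while Cd79a had 5 and 6. The 3 measured T and NK cell markers summed to 13 and 10 counts, with Cd4 and Nkg7 at 0 in both. The sum of dendritic cell markers, carried mostly by Zbtb46, was lower in the same library as H2-Ab1 and H2-DMa. With counts in units of 4, the interval for Zbtb46 ran from 0.334 to 1.03, so the depth could not show a difference in it. Of the 6 measured dendritic cell markers, 3 had a log2 ratio above 0 and 2 below. The part of these cells in the values of H2-Ab1 and H2-DMa was not tested.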

How the data were processed

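Primary mouse FAPs gave 1 poly(A) library for each condition, read as pairs of 150 nt. The protocol marks second strands with dUTP. The authors trimmed the reads. The paper names STAR 2.5.3a and FeatureCounts 1.5.1 with mm10, whereas the submitters' processing notes name cutadapt 1.9, HISAT2 2.2.1 and StringTie 2.1.6. The annotation release and the use of strand in counting are not given in the sources used here. The authors deposited for each gene a raw count and an FPKM value, which is the count scaled by gene length and by a library total and rounded to 2 decimals. The totals of the deposited counts were 62321027 and 83779203.

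Libraries were compared by the log2 ratio of (FPKM + 1) at a threshold of 2-fold. The ratio of count shares was given with its exact Clopper-Pearson interval at the 95% level, and the floor was set at 3 counts. Intervals cover counting error only. Among genes with 1 to 40 counts, 29.3% and 31.0% of the values were multiples of 4, against 25.6% and 25.1% among genes with at least 1000 counts. Intervals on counts divided by 4 were therefore added after the values were seen. No test between conditions was possible with 1 library each. Centring subtracted the median over 10626 genes whose FPKM reached 1 in each library. Trends over GC content and exon length were removed in 20 bins. The other alternatives were pseudocounts of 0.1 and 0.01, no pseudocount, an FPKM filter, a common sum without the 50 highest genes, CPM from the counts, other library totals, and thresholds of 1.5-fold and 4-fold.

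Positions, exon lengths and shared 31-base words were taken from GENCODE M21 (mm10), where 99.7% of the deposited identifiers were found. Promoter windows came from RefSeq on the same build. Calculations used Python 3.11.15, numpy 2.4.6, scipy 1.17.1 and pandas 2.3.3 and were tested on simulated counts. The members and the gene lists were chosen with earlier results of these data known. The genes named are Tgfbr3, the 7 members, all genes of the class II pathway, CD74 partner and interferon gamma signalling lists, up to 3 genes of each other list by the size of the ratio with a few set genes such as Nlrc5 and Cxcl9, genes without a count in either library, and the 3 genes nearest to the most abundant member. Genes named for their place beside the members were chosen after their values were seen. A gene of the interferon gamma signalling list is not reported here. In all, 22 of 147 list symbols were not analysed here.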

Additional observations from a re-analysis of the deposited data

How the results depend on the processing

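The count of class II genes at least 2-fold higher was 0 under each alternative tried other than a pseudocount of 0.01, where it was 1. That gene was Ciita, whose FPKM of 0.01 and 0 then gives exactly 2-fold by construction. The count at least 2-fold lower was 0 under each of them. Several alternatives could not call the low genes. Ciita and H2-Aa had no ratio without a pseudocount, the FPKM filter kept only 3 genes, and the CPM ratio also added 1. The median log2 ratio of the class II genes was −0.34 over the 3 genes whose FPKM reached 1 in a library and −0.16 when centred. Over the alternatives, the log2 ratio ran from −0.71 to −0.49 for H2-Ab1, from −0.48 to −0.24 for H2-DMa, from −0.21 to −0.01 for H2-DMb1, from −0.16 to −0.02 for H2-Eb1 and from −0.03 to 0.79 for Cd74. With totals that leave out the 50 highest genes, the ratio of shares was 0.588 for H2-Ab1, 0.671 for H2-DMa and 0.878 for H2-DMb1. For the class I presentation genes, a comparison added after the values were seen, the count of 12 was 3 at a 4-fold threshold and within 1.5 times under the other alternatives. No paired analysis was possible because each condition has 1 library. Leaving out a library leaves no comparison. Depth limits Ciita, Cd74 and H2-Eb1 most, whose counts were 92 or less, and their intervals are wider with counts in units of 4.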

Other observations

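Co-stimulatory genes, whose products T cells need beside MHC class II to respond, were mixed in level. Cd80 had FPKM values of 6.68 and 4.75 (log2 ratio 0.42), Cd40 1.96 and 1.30 (0.36) and Icosl 0.55 and 0.19 (0.38), while Cd86 had 0 counts in both libraries. None of the 4 measured genes was 2-fold higher with the added 1, against 1.41% of all genes. By count share, Icosl was 2.75-fold higher (95% CI 2.11 to 3.61, or 1.64 to 4.99 in units of 4), from 174 and 85 counts. By that measure, 13.0% of genes with more than 3 counts in both libraries were 2-fold higher. The ratio of shares of the summed counts of the 4 genes, library labelled TGFBR3 over library labelled vector, was 1.46 (95% CI 1.38 to 1.55). That of the class II genes was 0.754.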
